A study of Mus musculus with 186 samples.

Results

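The promoters of Rrm1, Armc7 and Fam165b were the weakest of a library of CpG mutants of CpG island (CGI) promoters, which was measured by TrAC-seq in mouse embryonic stem cells (ESCs). They are 3 of the 12 promoters of that library and were chosen by their measured level: their unmutated constructs had a mean log2 activity below -2 in wild-type cells. That level is therefore a description here, and no test is given on it. Each promoter had 5 constructs, with 0%, 25%, 50%, 75% and 100% of its non-motif-CpGs mutated, so that 15 of the 60 constructs of the library belong to the 3 promoters. Non-motif-CpGs are CpGs outside the motifs of bound transcription factors (TFs), and their C was changed to A, with another random choice of CpGs at each step. The library was inserted by recombinase-mediated cassette exchange at a single site of the β-globin locus, in wild-type ESCs derived from the TC-1 line and in a triple-knockout (TKO) line made from them, which lacks Dnmt1, Dnmt3a and Dnmt3b. Both lines carry the same insertion site and the same cassette, and differ by label in the 3 deleted genes. Whether the TKO line is a single clone is not given in the sources used here, and the loss of the 3 genes was not checked in these values. Each line had 3 replicates, each with an RNA and a genomic DNA sample. Clones of the wild-type line were also measured by bisulfite sequencing.

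In TrAC-seq each promoter drives a reporter transcript that carries a barcode (BC), and the activity of a BC is its RNA reads over its DNA reads after scaling both to the same total. The authors added a pseudocount of 0.05 to each ratio, and the values of a construct's BCs were combined as a geometric mean. On the log2 scale used here, no construct can fall below -4.32, which is called the floor here. Values are only given for constructs with at least 3 BCs in a replicate. A replicate held 2169 to 2341 BCs in wild-type cells and 710 to 756 in TKO cells. Read totals are unknown, and the labels do not say whether replicates came from separate cultures, so that p-values may measure technical spread only.

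CGIs are regions rich in C, G and CpG that surround the start sites of most broadly expressed genes. They stay largely free of DNA methylation, and TFs whose motifs hold CpGs often bind them. The density of CpGs is given as observed over expected (OE), the number of CpGs relative to that of a sequence of the same base composition. Rrm1 encodes the large subunit of ribonucleotide reductase, the enzyme that makes deoxyribonucleotides for DNA synthesis. Armc7 encodes a protein with armadillo repeats.

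The stretches upstream of the annotated start sites are shown because they differ in how many CpGs they hold. Which of these were mutated at each step was not analysed here. The stretches of Rrm1 and Armc7 are complete, and that of Fam165b is limited to the 300 bases next to the start, with 17 of its 18 upstream CpGs. They are read from mm9, on the plus strand, with CpGs in capitals. For Rrm1 the stretch is chr7:109590010-109590208, for Armc7 chr11:115336697-115336980 and for Fam165b chr16:92301231-92301530, all intergenic up to the annotated start in GENCODE M1.
Rrm1 upstream stretch: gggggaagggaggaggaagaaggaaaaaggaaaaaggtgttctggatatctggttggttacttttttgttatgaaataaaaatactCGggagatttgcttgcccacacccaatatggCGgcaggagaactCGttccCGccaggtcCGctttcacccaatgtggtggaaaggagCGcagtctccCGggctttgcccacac
Armc7 upstream stretch: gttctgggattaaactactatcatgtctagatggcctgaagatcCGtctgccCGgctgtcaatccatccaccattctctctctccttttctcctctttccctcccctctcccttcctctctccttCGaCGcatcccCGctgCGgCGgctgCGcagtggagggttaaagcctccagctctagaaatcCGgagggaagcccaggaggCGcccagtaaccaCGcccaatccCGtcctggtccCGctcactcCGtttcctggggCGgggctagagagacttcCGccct
Fam165b upstream stretch: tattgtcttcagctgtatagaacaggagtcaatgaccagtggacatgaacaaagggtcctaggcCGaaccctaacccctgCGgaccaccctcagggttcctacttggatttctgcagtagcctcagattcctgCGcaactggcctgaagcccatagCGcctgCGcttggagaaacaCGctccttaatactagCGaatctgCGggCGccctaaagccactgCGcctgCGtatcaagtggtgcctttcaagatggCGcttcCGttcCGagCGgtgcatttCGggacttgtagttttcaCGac

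The Rrm1 insert (ENSMUSG00000030978.9) spanned 556 bp, chr7:109590010-109590565, with the annotated start at 109590209, and held exon 1 with the start codon at 109590539. Only 7 of its 37 CpGs lay upstream of the start, in a stretch of 199 bp, and 30 lay in the 357 bp from the start on. The Armc7 insert (ENSMUSG00000057219.5) covered 542 bp, chr11:115336697-115337238, with the start at 115336981. Of its 30 CpGs, 16 were upstream and 14 in exon 1, within the 5′ UTR of the longest transcript. The Fam165b insert (ENSMUSG00000051989.5) covered 550 bp, chr16:92301212-92301761, with the start at 92301531, exon 1 up to 92301588 and the beginning of intron 1. It held 28 CpGs, 18 upstream and 10 downstream, of which 11 lay in the last 100 bases before the start. Rrm1 thus carried most of its CpGs downstream of the start, and Fam165b most of them upstream.

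The OE was 0.883 in Rrm1, 0.607 in Armc7 and 0.687 in Fam165b, and the G+C content was 54.8%, 60.8% and 54.3%. At the 100% step, 3, 7 and 4 CpGs were left, with an OE of 0.093, 0.161 and 0.117. The 3 promoters therefore started from different CpG densities, and all ended at a low one.

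Exact matches to 9 short motifs were searched in the inserts on both strands, with positions counted from the annotated start as 0. The SP motif GGGCGG was found at -27 and -7 in Armc7, at 47 in Fam165b and at 50 in Rrm1, and is present in 10 of the 12 inserts and in 53.8% of 22361 windows of 550 bp in mm9, each centred on the annotated start of a protein-coding gene (GENCODE M1). The NF-Y motif CCAAT was found at -91 and -45 in Rrm1 and at -63 in Armc7, and occurs in 5 of the 12 inserts and in 50.7% of the windows. The YY1 motif ATGGCGGC was found at -86 and 5 in Rrm1 alone among the 12 inserts, and occurs in 5.41% of the windows. The match at -86 follows directly on the CCAAT at -91, without overlap, and the SP matches of Armc7 lie next to its start. No exact match was found in these 3 inserts for the ETS motif CCGGAAG, the NRF1 motif GCGCATGC, the E-box CACGTG, the CRE TGACGTCA, the E2F motifs TTTCCCGC and TTTGGCGC or the TATA motif TATAAA, which occur in 2.68% to 18.2% of the windows. Of these, the ETS motif was present in 6 of the 12 inserts, all of other promoters, and in 15.0% of the windows. The E-box was present in 2 of the 12 inserts, an E2F motif in 1, and the NRF1, CRE and TATA motifs in none. The inserts of the 3 promoters span 542 to 556 bp, close to the length of the windows, but are not centred on the start.

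The unmutated Rrm1 promoter had log2 activities of -2.44, -2.33 and -2.53 in the 3 wild-type replicates, with a mean of -2.43 ± 0.10 (SD, n = 3). Armc7 had -2.08, -2.37 and -2.13 with a mean of -2.19 ± 0.16, and Fam165b -1.69, -2.24 and -2.50 with a mean of -2.14 ± 0.41. The replicates of Fam165b overlap those of both other promoters, so the order of the 3 cannot be told beyond their spread. The nearest promoters outside the threshold were Nsmce1 with -1.02 and Snupn with -0.93, well above it, and the strongest promoter was Snrpb2 with 1.24. The 3 promoters thus lay 1.89 to 2.18 above the floor, whereas the other 8 promoters with a value lay 3.30 to 5.57 above it. The unmutated construct of the remaining promoter, Tusc3, did not pass in 2 replicates.

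In TKO cells, which were not used to choose the promoters, unmutated Rrm1 had -2.11, -2.20 and -2.59, a mean of -2.30 ± 0.26, and was again the lowest of 10 promoters. Armc7 had -1.64, -1.28 and -1.72, a mean of -1.55 ± 0.24, and Fam165b had -0.66 and -1.25 in its 2 replicates, a mean of -0.96 ± 0.42, from 3 BCs each. Snupn, with -1.79, lay between Rrm1 and Armc7, and Nsmce1, with -0.90, lay within the replicates of Fam165b. The replicates of Rrm1, Snupn, Armc7 and Fam165b followed each other in this order without overlap, though with narrow gaps around Armc7, and those of Fam165b overlapped Nsmce1.

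A second pool of unmutated promoters, the second housekeeping library, was measured in wild-type cells and scaled on its own. There Armc7 had -1.46, -1.80 and -1.26, a mean of -1.51 ± 0.27, and was the lowest of the 12 promoters shared with the mutant library. Rrm1 had -1.19, -0.65 and -0.65, a mean of -0.83 ± 0.31, and was second. Fam165b had -0.21, -0.70 and 0.93, a mean of 0.01 ± 0.84, and was sixth. Replicate 3 of Fam165b was far above the other two. These means rest on 4 to 9 BCs per replicate. Among the 60 constructs of that pool that passed, the ranks from the lowest were 34, 37 and 41 for Armc7, Rrm1 and Fam165b, all above the median of -2.93. The 3 promoters were thus weak within the mutant library in wild-type cells, and lay in the upper part of the second pool.

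**Figure D1:**
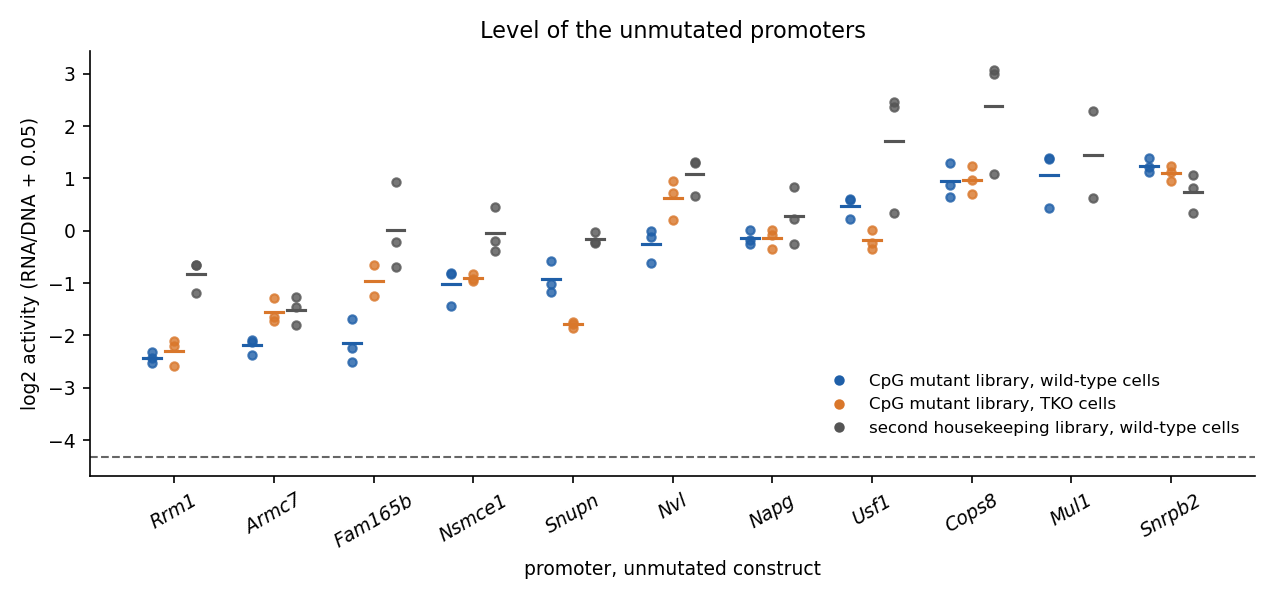
Log2 activity of unmutated promoters (vertical axis) for the 11 promoters with a value in wild-type cells, ordered by that value. Points are replicates, bars their means, the dashed line is the floor at -4.32. Rrm1, Armc7 and Fam165b were chosen by the blue points; in the second library (grey) Fam165b averaged 0.01 and Rrm1 -0.83.

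The second pool exceeded the mutant library by 0.69 for Armc7, 1.60 for Rrm1 and 2.15 for Fam165b on the log2 scale, against -0.50 to 1.44 with a median of 0.87 for the 8 other promoters with both values. This difference contains the value that chose the 3 promoters, and it also holds the scaling of the pools. It is given with no test.

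Activity of Rrm1 dropped to near the floor at the first step in both lines. With 25% mutated and 29 CpGs left, wild-type replicates had -3.85, -4.01 and -3.96, a mean of -3.94 ± 0.08, or 35.1% of the unmutated construct. This construct was the best covered of the 3 promoters, with 193 to 225 BCs per replicate. It lay 0.38 above the floor. The other promoters ranged from -3.59 to 0.72 at this step, with Mul1 as the lowest. Mul1 lost 86.4% of the log2 distance between its unmutated construct and the floor, against 79.7% for Rrm1. In TKO cells its construct with 25% mutated was at -4.11, so a steep first drop is not particular to Rrm1. The later steps stayed at that level. The replicates with 50% mutated were at -3.83, -4.09 and -4.04, those with 75% at -3.90, -3.93 and -3.94, and those with 100% at -4.14, -4.05 and -4.31. All mutated Rrm1 constructs thus lay within 0.5 of the floor, with means from -4.17 to -3.92, and their order cannot be read from these values. Of the mutated constructs of the other promoters, 11 of 35 lay that close in wild-type cells and 9 of 31 in TKO cells.

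In TKO cells the same step gave -3.90, -3.85 and -3.84 with 25% mutated, a mean of -3.87 ± 0.03, from 63 to 68 BCs. With 50% mutated Rrm1 had -4.15, -4.17 and -3.98. With 75% mutated all replicates lay at -4.32, so that the 12 or 13 BCs of this construct had almost no RNA reads. With 100% mutated they were -4.32, -3.89 and -4.32, from 3 or 4 BCs. Replicate 2 of the last construct lay above the other two, which were at the floor.

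Within TKO cells, each mutated construct was compared with the unmutated construct of the same promoter and replicate. The test was limma's moderated test on the log2 differences, over 33 mutated constructs of the library with Benjamini-Hochberg adjustment. All 4 Rrm1 constructs were lower, with a difference of -1.57 (95% confidence interval -2.01 to -1.12, adjusted p = 4.65e-09) with 25% mutated and of -1.80, -2.02 and -1.88 at the later steps, each in 3 of 3 replicates (n = 3, limma). The difference was -1.79, -1.65 and -1.25 in the replicates at the first step. Armc7 with 75% mutated was lower, with a difference of -1.55 (limma, adjusted p = 7.44e-07, 2 replicates), and Fam165b was called lower at every step, also from 2 replicates. Of the 10 mutated constructs of the 3 promoters, 9 were lower in this test and 1 was higher. Of all 33 constructs tested, 87.9% were lower and 3.03% higher, so a decrease was the rule in the whole library and is not particular to these promoters. The differences of a promoter share its unmutated construct and are not independent. limma here assigned the same spread to every construct, so the intervals do not follow the spread of a single construct.

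Armc7 was the exception at the first step, with higher activity after loss of 5 of 30 CpGs. The wild-type replicates with 25% mutated were -1.98, -1.46 and -1.05, a mean of -1.49 ± 0.47, or 162% of the unmutated construct, from 18 to 27 BCs. All 3 lay above all 3 unmutated replicates, with differences of 0.10, 0.91 and 1.08 within replicates. The unmutated wild-type level chose this promoter, so the comparison in wild-type cells is a description, with no test. In TKO cells they were -0.38, -1.38 and -0.52, a mean of -0.76 ± 0.54, from 7 to 9 BCs. Replicates 1 and 3 lay far above the unmutated construct, and replicate 2 did not. The differences in TKO cells were 1.26, -0.10 and 1.20, with a mean of 0.79 (limma, 95% confidence interval 0.34 to 1.23, adjusted p = 0.00102). Their SD of 0.77 is close to the mean, and the call rests on the spread shared over constructs. It was the 1 construct of 33 that was called higher.

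Further steps lowered Armc7. The construct with 50% mutated had 1 or 2 BCs in wild-type cells and none in TKO cells, and has no value. With 75% mutated the wild-type replicates were -2.92, -3.47 and -3.45, a mean of -3.28 ± 0.32 and 46.97% of the unmutated construct. TKO cells gave -2.96 and -3.50, each from 3 BCs, with replicate 2 missing. With 100% mutated the wild-type replicates were -3.78, -4.28 and -4.18, a mean of -4.08 ± 0.26, from 4 or 5 BCs. This construct was within 0.5 of the floor, and has no value in TKO cells.

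Fam165b declined in a more even series. In wild-type cells the replicates with 25% mutated were -2.25, -2.66 and -2.32, and those with 50% mutated -2.50, -2.59 and -2.21. Their replicates overlapped those of the unmutated construct, with 83.1% and 81.7% of its activity. With 75% mutated the replicates were -3.56, -2.80 and -2.93, a mean of -3.10 ± 0.41, and with 100% mutated -3.79, -3.85 and -3.77, a mean of -3.80 ± 0.04. All replicates of the last construct lay below all others of this promoter, 0.52 above the floor on average.

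In TKO cells Fam165b had -1.999, -1.34 and -1.57 with 25% mutated, a mean of -1.64 ± 0.33, and -2.10, -1.44 and -1.62 with 50%, a mean of -1.72 ± 0.34. The replicates with 75% mutated were -2.79, -2.79 and -2.55, a mean of -2.71 ± 0.14, and those with 100% mutated -4.12, -4.23 and -4.08, a mean of -4.14 ± 0.08. The first 2 steps lay above their wild-type replicates without overlap, and the last lay below them without overlap. Relative to the unmutated construct in the 2 TKO replicates that had one, the differences were -1.34 and -0.09 with 25% mutated, with a mean of -0.72 (limma, adjusted p = 0.0126). They were -1.44 and -0.19 with 50% mutated, with a mean of -0.82 (limma, adjusted p = 0.00480). In replicate 2 both constructs were close to the unmutated level. The SDs of 0.88 and 0.89 exceed the size of the means, and these 2 calls rest on the spread shared over constructs. With 75% and 100% mutated the means were -1.84 and -3.22 (limma, adjusted p = 1.38e-08 and 1.40e-16), and both replicates were clearly lower. The BCs behind these values number 3 to 12 per replicate.

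**Figure D2:**
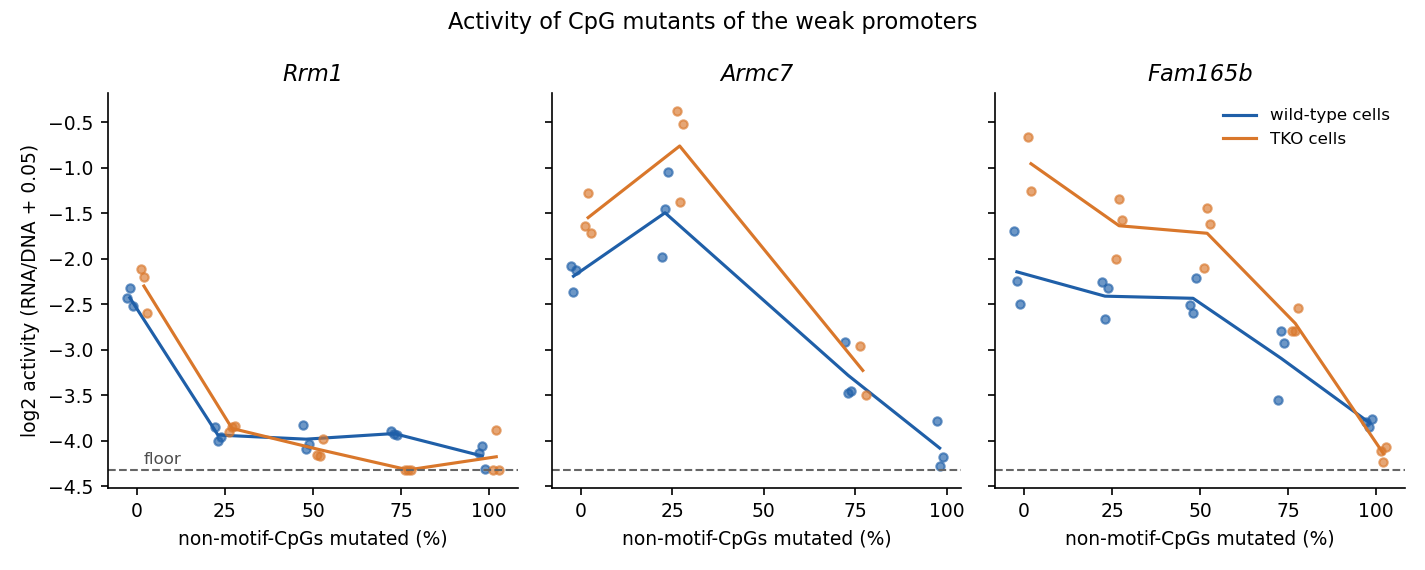
Log2 activity (vertical axis) against the percent of non-motif-CpGs mutated for Rrm1, Armc7 and Fam165b. Points are replicates in wild-type (blue) and TKO cells (orange), lines join their means where at least 2 replicates passed, and the dashed line is the floor at -4.32. Rrm1 reached -3.94 at the first step, Armc7 rose to -1.49 there, and Fam165b fell from -2.14 to -3.80 in wild-type cells.

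Because the unmutated level chose the promoters, the change from 25% to 100% mutated was used for a test in wild-type cells that does not involve it. It was taken within replicates for the 11 promoters with both constructs. Armc7 changed by -1.80, -2.83 and -3.13 in the replicates, with a mean of -2.59 (limma, 95% confidence interval -3.54 to -1.64, adjusted p = 0.00338). Fam165b changed by -1.54, -1.19 and -1.44, with a mean of -1.39 (limma, -1.72 to -1.06, adjusted p = 0.00124). Rrm1 changed by -0.29, -0.046 and -0.35, with a mean of -0.23 (limma, -0.54 to 0.08, adjusted p = 0.102). Thus 2 of the 3 promoters were lower at 100%, against 90.9% of the 11 promoters tested. Rrm1 was the only one of the 11 not called. Its 25% construct already lay 0.38 above the floor, so that no drop larger than that could be measured. The nearest change was that of Mul1, -0.25 (limma, adjusted p = 0.0417), whose 25% construct lay 0.73 above the floor. Mul1 was not called without replicate 1 (limma, adjusted p = 0.126). Without replicate 2, Rrm1 passed the threshold (-0.32, adjusted p = 0.0357).

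The same change in TKO cells, a test added after the data were seen, was -2.12, -2.89 and -2.50 for Fam165b, with a mean of -2.50 (limma, -2.87 to -2.14, adjusted p = 2.00e-07), and -0.42, -0.035 and -0.48 for Rrm1, with a mean of -0.31 (limma, -0.62 to -0.004, adjusted p = 0.0477). Of the 9 promoters tested, 88.9% were lower. The call for Rrm1 was lost without replicate 1 (-0.26, adjusted p = 0.251) and without replicate 3 (-0.23, adjusted p = 0.231). The drop of Fam165b was larger in TKO than in wild-type cells, with a difference of -1.11 between the changes (limma, -1.62 to -0.61, adjusted p = 0.00515), and no TKO replicate overlapped a wild-type one. This difference between lines was called lower in 22.2% of 9 promoters, and in either direction in 33.3%. Mul1 was called higher, with a difference of 0.80 (limma, adjusted p = 0.00194). For Rrm1 the difference was -0.08 (limma, -0.47 to 0.31, adjusted p = 0.723).

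Seen from the floor, the 3 promoters had little room to fall. In wild-type cells, 26.98% to 31.7% of their unmutated activity was left at 100%, against 2.95% to 12.9% for the 7 other promoters with both values. When the pseudocount of 0.05 was subtracted from both activities, 4.02% was left in Rrm1, 5.33% in Armc7 and 13.04% in Fam165b, against 0.297% to 3.24% in the others. As a share of the log2 distance between the unmutated construct and the floor, 91.9%, 88.7% and 76.1% was lost, against 85.7% to 97.8% in the others. On the last scale Rrm1 and Armc7 lay inside the range of the others and Fam165b below it. The level of the 100% constructs themselves was 0.15 to 0.52 above the floor, against 0.11 to 0.58 in the others, and the percent left has as its denominator the level that chose the promoters, so no test is given. Subtraction from a geometric mean is only approximate. The percents before subtraction are geometric means over replicates, and those after it are arithmetic means. In TKO cells 92.9% and 94.6% of the distance was lost for Rrm1 and Fam165b, within the 91.2% to 99.3% of the 6 other promoters. After subtraction 3.48% and 1.09% was left, against 0.190% to 1.64% in the others, so that Fam165b lay inside their range and Rrm1 above it.

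**Figure D3:**
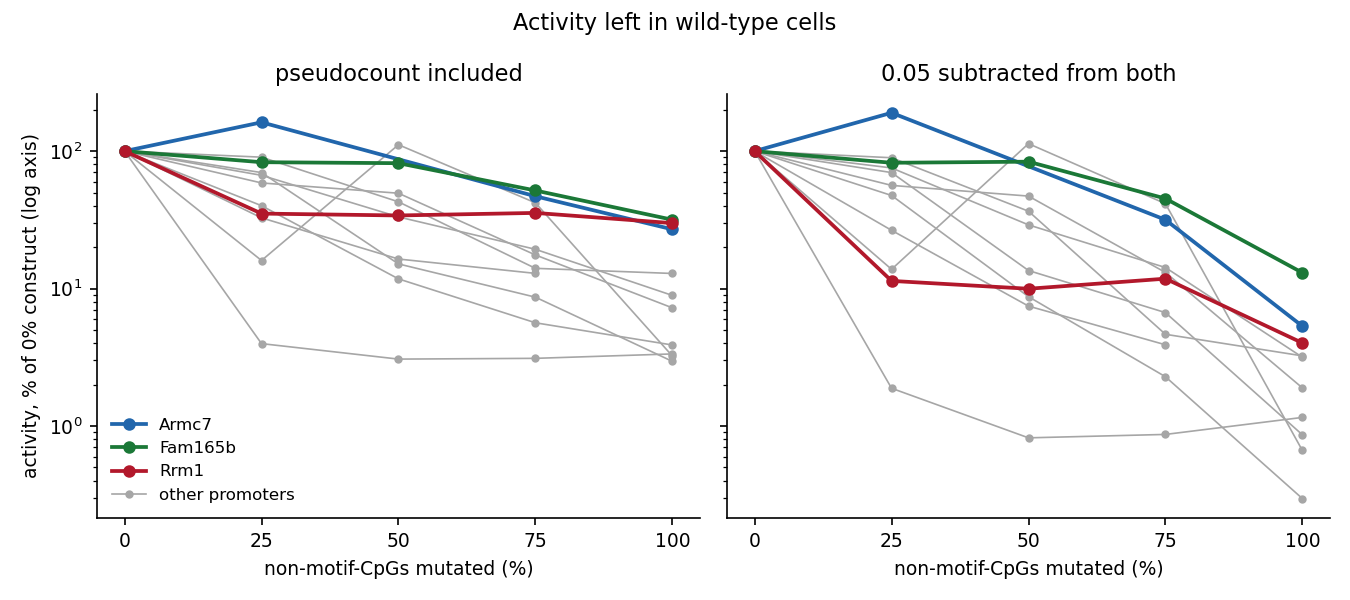
Activity in wild-type cells in percent of the unmutated construct (log axis) against the percent of non-motif-CpGs mutated, as deposited (left) and after subtracting 0.05 from both activities (right). Points are geometric means of the replicate ratios on the left and arithmetic means on the right, and grey lines are the other 8 promoters. At 100% the 3 promoters keep 26.98% to 31.7% on the left and 4.02% to 13.04% on the right.

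The slope of log2 activity on OE was fitted by least squares in each replicate. For Rrm1 in wild-type cells it was 1.65 ± 0.07 (SD, n = 3) per unit of OE, the lowest of 12 promoters. Tusc3 was next with 1.84 ± 0.22, with overlapping replicates and fitted without its unmutated construct. The slope was 2.85 ± 0.88 for Fam165b and 5.09 ± 1.04 for Armc7, at ranks 3 and 8 from the lowest. In TKO cells it was 1.99 ± 0.28 for Rrm1, 5.50 ± 0.23 for Fam165b and 6.33 ± 1.07 for Armc7 (n = 2 and 3 constructs). Their ranks were 2, 7 and 9 of 11, and the lowest slope there was -0.60 for Mul1, fitted without its unmutated construct. The slope of Fam165b was higher in every TKO replicate than in any wild-type replicate, with 5.32 as the lowest against 3.86 as the highest, although 1 TKO replicate had no unmutated construct. Without constructs within 0.5 of the floor the TKO mean was 3.93, close to that highest wild-type replicate. The wild-type mean stayed at 2.85, since its 100% construct lay 0.52 above the floor and was kept. The series of Rrm1 is a drop followed by a plateau, which a line describes poorly. No test is given, since the slopes in wild-type cells contain the level that chose the promoters.

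The lines were compared by limma over 51 constructs, of which 41 were mutated and 10 unmutated. The mutated constructs were not used to choose the promoters. Fam165b was higher in TKO cells with 25% mutated, by 0.77 (95% confidence interval 0.29 to 1.26, adjusted p = 0.0445), and with 50% mutated, by 0.72 (0.24 to 1.19, adjusted p = 0.0445). With 75% mutated the difference was 0.38 (-0.13 to 0.90, limma, adjusted p = 0.241). With 100% mutated Fam165b was lower, with a difference of -0.34 (-0.55 to -0.13, limma, adjusted p = 0.0445). This last construct was within 0.52 of the floor in both lines, with 3 or 4 BCs in TKO cells, and its difference was 0 (limma, adjusted p = 1) when activities under 0.1 were set to 0.1. Armc7 differed by 0.73 with 25% mutated (-0.08 to 1.55, limma, adjusted p = 0.180) and by 0.05 with 75% mutated (-0.58 to 0.69, limma, adjusted p = 0.910). Rrm1 was lower with 75% mutated, with a difference of -0.40 (-0.59 to -0.21, limma, adjusted p = 0.0320), both groups being within 0.5 of the floor. The other 3 Rrm1 constructs differed by -0.12 to 0.07, with adjusted p of 0.495 to 0.973 by limma. Of the 10 mutated constructs 4 were called, 2 in each direction, against 9.76% higher and 12.2% lower of the 41 mutated constructs. Over all 51, which include unmutated constructs chosen by their wild-type level, it was 27.5%, 13.7% in each direction. The median difference was 0.06 over the 10 and 0.08 over the 41.

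These calls changed with the scaling and when a replicate was left out. When the replicates were centred on the median construct, the median over all constructs moved by -0.26, Fam165b with 25% and 50% mutated had 0.51 and 0.45 and was not called (limma, adjusted p = 0.120 and 0.159), and calls over the library were 2 higher (3.92%) and 15 lower (29.4%), or 33.3% in all, instead of 7 and 7. With this centring 3 of the 10 were called, all lower: Fam165b with 100% mutated and Rrm1 with 50% and 75%, constructs that lie near the floor in at least 1 line. None of the 10 was called without replicate 2 or without replicate 3, and 2 were called without replicate 1, Fam165b with 25% and 50% mutated. Each such fit had at most 2 replicates per line, and the share called over the library was not counted for it. The differences moved little for Rrm1 with 75% mutated (-0.41 to -0.39) and Fam165b with 100% mutated (-0.35 to -0.32). For Fam165b with 25% and 50% mutated they ranged from 0.50 to 1.03 and from 0.50 to 0.87. The unmutated constructs differed by 0.13 for Rrm1, 0.64 for Armc7 and 1.19 for Fam165b, which is a description, since wild-type values chose them.

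**Figure D4:**
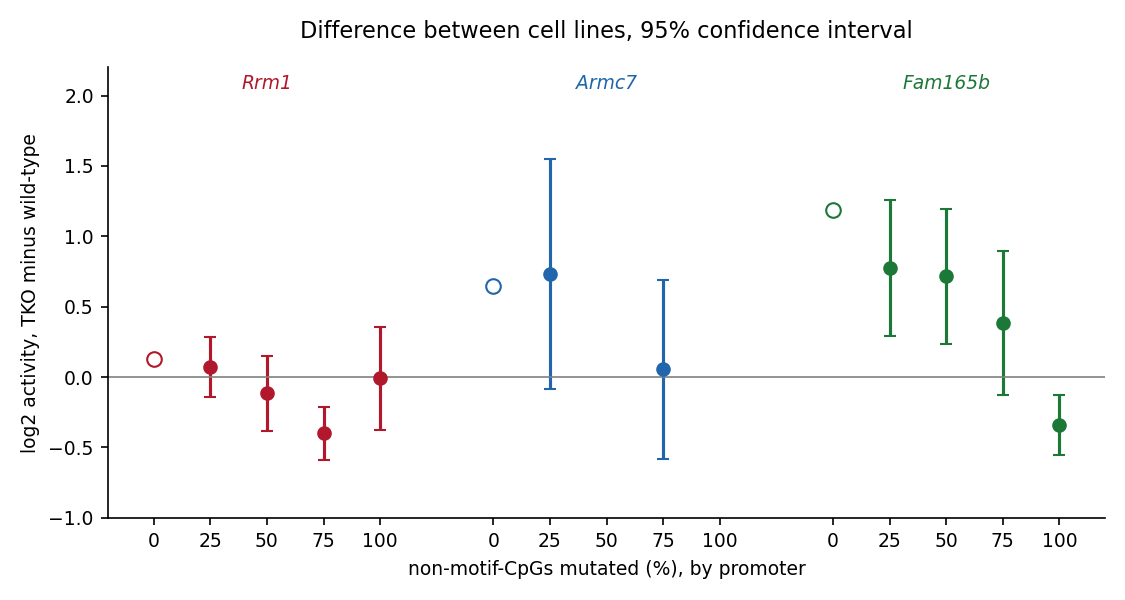
Difference of mean log2 activity, TKO minus wild-type cells, by promoter and percent of non-motif-CpGs mutated. Filled points are mutated constructs with the 95% confidence interval from limma, and open points are unmutated constructs, shown without interval. Fam165b goes from 0.77 at 25% to -0.34 at 100%, and mutated Rrm1 stays between -0.40 and 0.07.

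Methylation of the inserted promoters was measured in clones of wild-type cells, each value being the authors' mean over the CpGs of an insert. Of 58 values, 9 belong to the 3 promoters, 8 of them to Rrm1. Unmutated Rrm1 had 18.2% and 22.8%, above each of the 11 values of 3 other unmutated promoters, which ranged from 0.0183% to 2.44%. With 25% mutated Rrm1 had 47.5% and 78.3%, and with 50% mutated 82.3% and 82.4%. With 75% mutated the values were 40.5% and 89.04%, so that values of the same construct differed widely. Armc7 had 5.16% with 25% mutated, the construct with raised activity, and Fam165b had none. Other promoters had 0.0168% to 34.5% with 25% mutated (5 values of 3 promoters) and 0.0207% to 69.6% with 50% mutated (14 values of 4). All lay below the values of Rrm1 at the same step, but 10 of the 14 belonged to Cops8. With 75% mutated the other promoters ranged from 0.0307% to 80.04%, so that some lay above the lower value of Rrm1. The values of an insert could not be tied to a clone or to its coverage, and no test is given. The Rrm1 constructs with 25% to 75% mutated lay within 0.5 of the floor in both lines, at most 0.46 above it in TKO cells. A relation between methylation and activity was not tested.

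**Figure D5:**
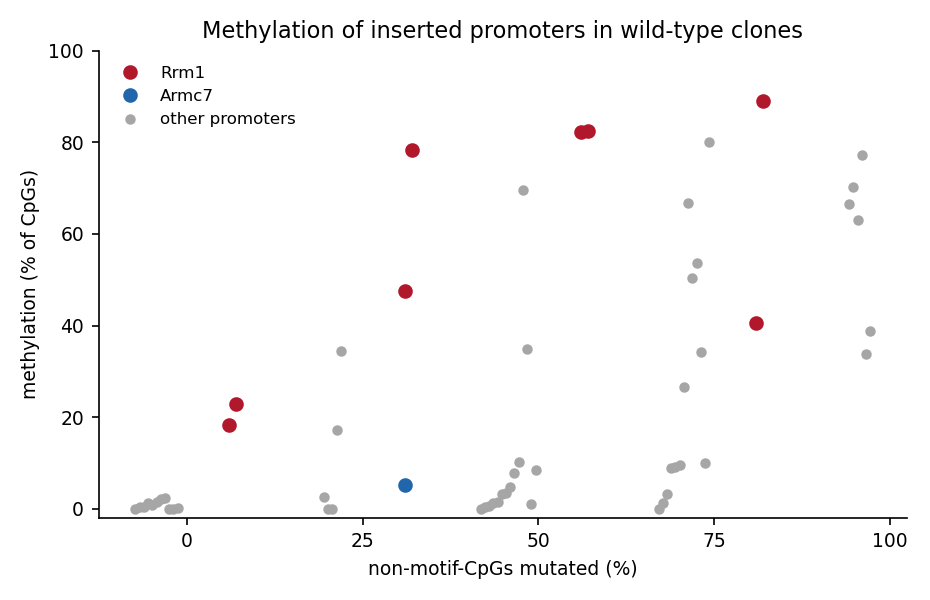
Methylation in percent of CpGs (vertical axis) of promoters inserted in wild-type clones, against the percent of non-motif-CpGs mutated. Each point is 1 deposited value, spread sideways for legibility, with other promoters in grey. The values of Rrm1 lie between 18.2% and 89.04%, and the value of Armc7 at 5.16%.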

How the data were processed

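TrAC-seq activities of 2 promoter libraries in mouse ESCs were used: the CpG mutant library in wild-type and TKO cells and the second housekeeping library in wild-type cells, with 3 replicates each, and methylation of wild-type clones. The authors assigned BCs to promoters with Bowtie on mm9 or, for mutants, by string distance in R, with versions not given in the sources used here. They scaled RNA and DNA reads to the smaller total, kept BCs with more than 20 DNA reads and deposited activities as a ratio, with the pseudocount of 0.05 included. Activities are missing below 3 BCs. The deposited methylation is a fraction, printed in percent here, and the G+C content was deposited as a percent. The numbers of BCs and CpGs and OE, an observed over expected ratio, are used as the authors give them.

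Ratios were converted to log2. Constructs with values in at least 2 replicates of a group were kept. limma 3.58.1 in R 4.3.3 tested all such constructs of the mutant library, two-sided, and p-values were adjusted by Benjamini-Hochberg at a threshold of 0.05. limma was also run on simulated data with a constant SD, no floor and no missing values. The simulation thus does not cover constructs near the floor or with 2 replicates. Differences from the unmutated construct and from 25% to 100% mutated were taken within replicates. Python 3.11.15, numpy 2.4.6, pandas 2.3.3 and matplotlib 3.10.9 did the rest. Promoters were assigned to genes by the GENCODE M1 start site within the mm9 coordinates, and CpG counts in mm9 matched the deposited ones for all 12. Windows for motif shares are 550 bp of mm9 around the GENCODE M1 starts of protein-coding genes. Sequences of the mutated constructs were not analysed here.

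The constructs named are all those of the 3 promoters, and other promoters appear as ranges or as the weakest, nearest or strongest. The promoters, motifs and tests were chosen with earlier results of these data known. The numbers of BCs are given as the measure of depth, since read totals are unknown. Columns of activity relative to the unmutated construct were not used. Alternatives were the barcode minimum, the replicate block, centring, a raised floor and each replicate left out.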

Additional observations from a re-analysis of the deposited data

Results flagged for a closer look

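The change of Fam165b from 25% to 100% of its non-motif-CpGs mutated differed between TKO and wild-type cells by -1.11 on the log2 scale (limma, adjusted p = 0.00515), which met the criterion for a difference between groups. The mean change was -2.50 in TKO and -1.39 in wild-type cells, and each of the 3 TKO replicates lay below each of the 3 wild-type ones. With each replicate number left out it ranged from -1.38 to -0.82, with adjusted p from 0.0124 to 0.0341 by limma. With activities under 0.1 set to 0.1 it was -0.77 (limma, adjusted p = 0.188). Of the 9 promoters tested, 33.3% were called in either direction and 22.2% lower. The test was added after the data were seen, and the 100% construct in TKO cells rests on 3 or 4 BCs per replicate. No group had the 4 samples needed to look for outlying samples.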

How the results depend on the processing

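The count of constructs that differed between the lines depended on nearly every choice. Of the 10 mutated constructs 4 were called, against 0 with the replicate block (4 at an unadjusted p under 0.05), 0 with activities under 0.1 set to 0.1 (2 at an unadjusted p under 0.05), 1 of 4 with at least 10 barcodes, and 0 to 2 with a replicate number left out. Centring gave 3. With the replicate block the differences of the 4 called constructs did not change, and their adjusted p was 0.0715 to 0.118 (limma). With activities under 0.1 set to 0.1 no construct of the library was called, the lowest adjusted p being 0.130 (limma, Nvl with 50% mutated). For the replicate block, at least 10 barcodes and a left-out replicate, the share called over the library was not counted. They thus cannot separate a loss in the 3 promoters from one over the library. The replicate numbers were not taken to pair the samples. Same-numbered samples of the lines correlated at 0.074, 0.057 and 0.412 over 47 constructs in their deviations. Wild-type replicates 1 and 3 correlated best with the same-numbered TKO replicate, and wild-type replicate 2 with TKO replicate 1, at 0.131. These values do not settle whether the samples pair. Differences reversed in sign without being called in any setting: Armc7 with 75% mutated gave -0.24 with centring, -0.0425 with the replicate block and -0.0425 to 0.24 with a replicate left out. Rrm1 gave -0.095 to 0.078 with 100% mutated and a replicate left out, and -0.19 with 25% mutated and centring.

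In TKO cells 9 of 10 mutated constructs were below the unmutated one. It was also 9 without pairing within replicates (no replicate block). With at least 10 barcodes 3 of 3 and with a replicate left out 4 to 8 remained testable and lower, of 5 to 9, fewer constructs having 2 values. For 100% against 25% in wild-type cells, at least 10 barcodes left 1 of 2, and the count was 2 to 3 with a replicate left out. In TKO cells it was 1 of 2 with the raised floor, and 1 to 2 with a replicate left out. The slope of Rrm1 in wild-type cells was 1.74 on the number of CpGs, and that of Fam165b in TKO cells 3.93 without constructs near the floor. That setting left Rrm1 with too few constructs for a slope. The setting without a barcode minimum was not run, since activities below 3 BCs are missing, and the minimum of 3 therefore changed nothing.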
